A study of Mus musculus with 36 samples.

Results

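Troponins and the calcium handling proteins of the sarcoplasmic reticulum set how fast a skeletal muscle fibre contracts and relaxes, and most of them exist as a fast form and a slow form encoded by separate genes. The genes described here are 10: the fast troponins Tnnt3, Tnni2 and Tnnc2, the slow troponins Tnnt1, Tnni1 and Tnnc1, the calcium pumps Atp2a1 (fast) and Atp2a2 (slow), the calcium store protein Casq1 and the calcium buffer Pvalb. They were chosen by name, and each symbol was matched to 1 gene identifier among the 54838 of the gastrocnemius table. The same identifiers were present in the other 5 tables, with the same exons. The troponins and pumps were read as fast or slow genes from textbook knowledge, not from these counts. Casq1 and Pvalb have no slow partner among the 10. They were grouped with the fast genes by choice and left out of the fast to slow ratio.

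The study asked what male mice pass to their offspring after a high-fat diet (HFD) or a low-fat diet (LFD), and all animals were C57BL/6 wildtype by the labels, which give no age. Gastrocnemius, liver and epididymal white adipose tissue (eWAT) came from male offspring of HFD-fed fathers, labelled HFDt (glucose tolerant) or HFDi (glucose intolerant), with 6 libraries per tissue. No library of these tissues was tied to HFDt or HFDi here, so the tissues are compared and tolerance is not. Round spermatids (6 libraries, diets not tied to columns) and cauda spermatozoa (3 HFD, 3 LFD) came from the diet-fed males themselves, and morulae (3 HFD, 3 LFD) from in vitro fertilization of wildtype oocytes with sperm of such males. A library from a tissue is bulk RNA, so fewer cells of a type and less RNA per cell cannot be told apart. Libraries of the somatic tissues carry only a sequencing number, which names them below.

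Background on the parts of the apparatus helps to read the values. Troponin sits on the thin filament as a complex of T (binding tropomyosin), I (inhibiting the contact of actin and myosin) and C (binding calcium). Calcium released from the sarcoplasmic reticulum binds troponin C, and the pumps encoded by Atp2a1 (SERCA1) and Atp2a2 (SERCA2) return it to the store, where calsequestrin (Casq1) holds it. Parvalbumin (Pvalb) buffers calcium in the cytosol of fast fibres. SERCA2 also has a form used in most cells outside muscle. The gastrocnemius of the mouse is built mainly of fast fibres, with slow fibres in its deeper region.

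Of the troponin genes, the fast pair Tnni2 (chr7:142441808-142444410) and Tnnt3 (chr7:142498836-142516009) lie near each other on the plus strand, with Lsp1 between them. The slow troponin T gene Tnnt1 lies on the same chromosome beside the cardiac gene Tnni3. Tnnt1 was counted over chr7:4504570-4516382, Tnni1 over chr1:135779434-135810989, Tnnc1 over chr14:31208312-31211729 and Tnnc2 over chr2:164777161-164779967 (GRCm38). The promoter windows below run from 250 bases before to 50 bases after the annotated RefSeq start (GRCm38.p6), in the direction of the gene. They are shown because these 3 slow genes shared their highest and lowest gastrocnemius library, and Tnnc2 is the fast partner of Tnnc1. Capitals mark the E-box, CANNTG, which reads the same on both strands.

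Tnnt1, chr7:4515926-4516225, minus strand: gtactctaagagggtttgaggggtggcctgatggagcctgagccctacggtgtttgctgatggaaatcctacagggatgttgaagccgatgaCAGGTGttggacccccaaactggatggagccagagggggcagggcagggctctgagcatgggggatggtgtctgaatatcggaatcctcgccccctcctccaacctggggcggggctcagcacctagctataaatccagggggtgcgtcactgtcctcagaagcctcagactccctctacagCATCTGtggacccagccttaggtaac
Tnni1, chr1:135799171-135799470, plus strand, the first of its 2 windows: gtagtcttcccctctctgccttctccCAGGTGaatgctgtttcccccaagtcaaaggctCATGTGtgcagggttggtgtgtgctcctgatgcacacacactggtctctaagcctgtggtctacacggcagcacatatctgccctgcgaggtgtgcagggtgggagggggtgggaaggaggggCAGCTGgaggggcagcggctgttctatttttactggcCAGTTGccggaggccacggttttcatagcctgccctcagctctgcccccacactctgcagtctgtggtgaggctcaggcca
Tnnc1, chr14:31208062-31208361, plus strand: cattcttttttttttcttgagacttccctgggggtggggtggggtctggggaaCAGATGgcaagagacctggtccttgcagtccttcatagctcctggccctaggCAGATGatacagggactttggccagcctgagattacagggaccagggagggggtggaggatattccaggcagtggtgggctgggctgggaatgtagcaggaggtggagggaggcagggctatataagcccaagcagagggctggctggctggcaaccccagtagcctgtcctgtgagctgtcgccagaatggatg
Tnnc2, chr2:164779685-164779984, minus strand: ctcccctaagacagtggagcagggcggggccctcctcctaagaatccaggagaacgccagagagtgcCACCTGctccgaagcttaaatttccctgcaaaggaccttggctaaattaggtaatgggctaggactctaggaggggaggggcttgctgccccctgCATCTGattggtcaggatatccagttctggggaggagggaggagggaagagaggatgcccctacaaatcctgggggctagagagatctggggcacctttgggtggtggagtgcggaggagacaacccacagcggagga

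Windows were given for 7 of the 10 genes, all but Tnnt3, Tnni2 and Atp2a2. Every one of the 4 printed windows held an E-box (2 in Tnnt1, 4 in Tnni1, 2 in Tnnc1 and 2 in Tnnc2), but 72.3% of all 32851 windows of that length did too. The MEF2 motif, searched as CTA and TAG with 4 bases of any kind between them, was found in none of the windows of these 7 genes and in 3.69% of all windows. The MCAT motif, searched as CATTCC on both strands, was found in Tnnc1 alone among the 7, and in 14.7% of all windows. These matches describe letters in a window and nothing more.

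Gastrocnemius expressed all 10 genes, and the fast set was counted far more often than the slow set. The total count per gastrocnemius library ran from 369772 to 2749920, and levels are given as CPM, the count scaled to a common library total. These libraries were made from the 3′ ends of transcripts, so a count is about 1 transcript end and is not divided by length unless stated. Fast troponin T (Tnnt3) had a CPM of 11645 in library 4, 17391 in library 5, 17761 in library 6, 9498 in library 7, 17137 in library 8 and 17379 in library 9. Fast troponin C (Tnnc2) had 9171, 13606, 14888, 8186, 17807 and 16827 CPM in the same order. Fast troponin I (Tnni2) had 5452, 8047, 8036, 5985, 9454 and 8594 CPM. The fast pump Atp2a1 had 3669.8, 6069, 7159, 3239, 5270.4 and 5394 CPM.

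For these 4 genes libraries 4 and 7 were the lowest. The other 4 libraries lay close together for Tnnt3 (17137 to 17761 CPM). They were wider apart for Tnnc2 (13606 to 17807 CPM), Tnni2 (8036 to 9454 CPM) and Atp2a1 (5270.4 to 7159 CPM). Casq1 ranged from 448 to 1248 CPM (median 776) and Pvalb from 2556 to 7249.8 CPM (median 5057), and libraries 4 and 7 were again the lowest for both. Libraries 4 and 7 were also the shallowest, with totals of 369772 and 935991.

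The slow genes differed between the same libraries by much more. Slow troponin T (Tnnt1) had 1055 CPM in library 4, 80.4 in library 5, 54.4 in library 6, 134 in library 7, 17.1 in library 8 and 101 in library 9. Slow troponin C (Tnnc1) had 381, 33.5, 16.1, 48.1, 7.22 and 37.7 CPM in that order. Slow troponin I (Tnni1) had 178, 13.8, 14.97, 26.7, 9.47 and 18.03 CPM. The slow pump Atp2a2 had 993, 88.4, 71.5, 199.8, 27.1 and 65.9 CPM.

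Library 4 was highest and library 8 lowest for all 4 slow genes, and library 7 was the second highest for each. Library 4 stood 13.1 times above the median of the other 5 libraries for Tnnt1, 11.9 times for Tnni1, 11.4 times for Tnnc1 and 13.9 times for Atp2a2. The 6 fast genes were not a mirror of this: in library 4 they stood at 0.670 (Tnnt3), 0.678 (Tnni2), 0.616 (Tnnc2), 0.680 (Atp2a1), 0.618 (Casq1) and 0.489 (Pvalb) of that median. Because library 4 was shallow, its slow values rest on 390 counts of Tnnt1, 66 of Tnni1, 141 of Tnnc1 and 367 of Atp2a2, which exceed the counts of the same 4 genes in each deeper library.

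**Figure D1:**
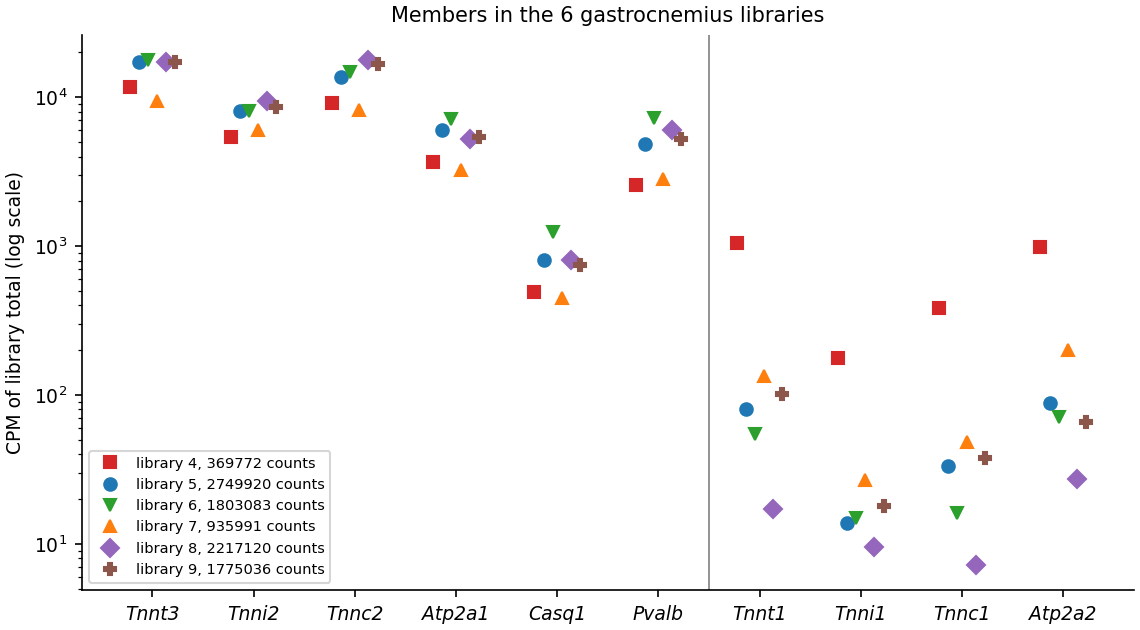
CPM of library total (log axis) of the 10 genes in the 6 gastrocnemius libraries, 1 symbol per library, with fast type genes left of the line and slow type genes right of it. The 4 slow genes are highest in library 4, at 178 to 1055 CPM, and lowest in library 8.

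The balance of the fast and slow sets was summarised per library as the counts of Tnnt3, Tnni2, Tnnc2 and Atp2a1 together, divided by those of Tnnt1, Tnni1, Tnnc1 and Atp2a2. The ratio was 11.5 in library 4, 65.9 in library 7, 209 in library 5, 216 in library 9, 305 in library 6 and 816 in library 8. The median was 212, the libraries spanned 71.0-fold, and without library 4 they still spanned 12.4-fold, from 65.9 to 816 with a median of 216. Nearly all of that span lay in the slow sum, which ran from 60.9 to 2607 CPM (42.8-fold), while the fast sum ran from 26908 to 49668 CPM (1.85-fold). Dividing each gene by its exonic length raised the median log2 ratio from 7.73 to 8.65 and left library 4 lowest and library 8 highest.

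The 4 pairs of partner genes gave the same extreme libraries. Tnnt3 over Tnnt1 ran from 11.04 to 999.8, Tnni2 over Tnni1 from 30.5 to 998, Tnnc2 over Tnnc1 from 24.05 to 2468 and Atp2a1 over Atp2a2 from 3.70 to 195, each lowest in library 4 and highest in library 8. Of all counts on the 6 troponin genes, the slow troponins took 5.79% in library 4 (exact 95% binomial interval 5.35% to 6.26%), 0.873% in library 7 (0.755% to 1.00%) and 0.0761% in library 8 (0.0599% to 0.0954%). In libraries 5, 6 and 9 the share was 0.326%, 0.209% and 0.366%. The intervals of libraries 4, 7 and 8 did not overlap, and they cover counting error only. The ratio is a description of 6 libraries and was not tested.

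**Figure D2:**
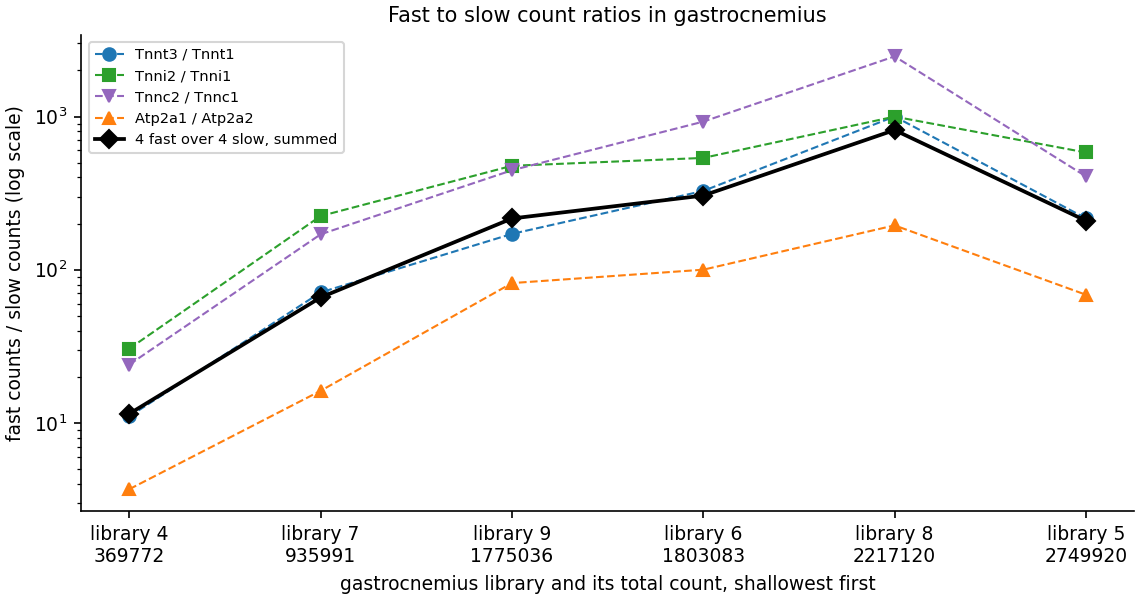
Ratio of fast to slow counts (log axis) in the 6 gastrocnemius libraries, ordered by total count from the shallowest, for each of the 4 partner pairs (dashed) and for the summed sets (solid black); the lines only join points of 1 measure. Library 4 is lowest in each, with a summed ratio of 11.5, and library 8 highest, with 816.

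Other slow fibre genes moved with the slow members in library 4. Of the 9 genes in a list of slow fibre genes, 8 were higher in library 4 than in every other gastrocnemius library, and the remaining gene, Myh7b, was at 2.77 CPM or less in all of them. Across the 5300 genes with a median of at least 10 CPM, 17.9% were highest in library 4 and 38.2% were lowest there. The slow myosin heavy chain Myh7 had 554 CPM in library 4 and 9.47 to 71.6 CPM in the others, and the slow light chain Myl3 had 2726 against 65.9 to 286 CPM. The fast myosin heavy chains did not move as a block: Myh4 (type IIb) had its lowest value in library 4, 13982 CPM against 24712 to 37556 CPM, whereas Myh2 (type IIa) had its highest, 3283 against 238 to 1518 CPM.

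The calcium release list showed no such shift as a whole. Of its 16 genes, 2 were highest and 6 lowest in library 4. Casq2, the cardiac and slow fibre calsequestrin, was highest there (73.0 CPM against 6.76 to 20.3 CPM), as was Hrc, a calcium binding protein of the store (538 against 308 to 516 CPM). Sarcolipin (Sln), a small inhibitor of the pumps, had 24.3 CPM in library 4 and at most 3.33 CPM in the others. Library 7, second in the slow genes, led the summed Schwann cell markers (173 CPM, range 6.10 to 173) and tendon markers (161 CPM, range 47.3 to 161). It also led the summed adipocyte markers (1029.9 CPM, range 206 to 1029.9), but Fabp4 alone gave 960 CPM of that sum. Adipoq and Plin1 were highest in library 4, at 54.1 and 13.5 CPM against 47.0 and 11.8 CPM in library 7. Cidec was highest in library 7 (8.55 CPM) and Lep in library 9 (3.38 CPM). Library 4 led the summed erythroid markers (598 CPM, range 403 to 598), with 4 of the 5 highest there. It also led the summed leukocyte markers (62.2 CPM, range 34.9 to 62.2), but Lyz2 alone gave 46.0 CPM of that sum, on 17 counts. Only 2 of the 4 leukocyte markers were highest in library 4. Ptprc was highest in library 8 (4.51 against 2.70 CPM in library 4) and Cd74 in library 9 (9.01 against 8.11 CPM). The hepatocyte markers summed to 3.16 CPM at most, with Serpina1a at 0. The part of depth, of other tissue or of the place of sampling in the slow gene values was not tested.

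Genes were then ranked by how closely their log2(CPM + 1) followed the log2 ratio over the 6 libraries, leaving out the 10 genes themselves. Among 5289 genes the lowest correlations belonged to Myh7 (r = -0.99), Crybg3 (-0.99), Prep (-0.99), Pdzd8 (-0.99) and Resf1 (-0.98), and the highest to Clns1a (0.99), Ddx10 (0.99), Ppp2r1a (0.98), Glrx2 (0.98) and Brd3 (0.98). Of those 10 genes only Myh7 is a fibre type gene, and its range of 9.47 to 554 CPM was far wider than the 18.9 to 64.0 CPM of Ddx10 or the 43.8 to 111 CPM of Resf1. The 8 ranked slow fibre genes all had r below 0 (median -0.95). Of 8 fast fibre genes 6 had r above 0 (median 0.87). Most genes did so too: of all 5289 ranked, 3344 had r above 0 and 1945 below, with a median of 0.27. With 6 libraries that share depth differences, these values describe likeness only, and without library 4 only 2 of the 10 named genes were still among the first 5 at either end.

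Set against liver and eWAT, all 10 genes were higher in gastrocnemius. In edgeR's quasi-likelihood test over the 18 somatic libraries with Benjamini-Hochberg adjustment, 10 of 10 passed an adjusted p of 0.05 in the comparison with liver, where 31.5% of 10851 genes were called higher in gastrocnemius. All 10 also passed in the comparison with eWAT, where 26.3% were. The genes were picked as muscle genes, so their count is a check of the tissue. The median log2 fold was 10.32 over liver and 8.59 over eWAT, beside medians of -0.06 and -0.35 over all genes tested.

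Each fast gene stood far above both other tissues in the fit. Tnnt3 was higher by 11.04 on the log2 scale than in liver (SE 1.13, adjusted p = 8.93e-09 by edgeR) and by 8.64 than in eWAT (SE 1.02, adjusted p = 1.16e-07). Casq1 was higher by 11.54 than in liver (SE 0.68, adjusted p = 5.28e-13) and by 8.80 than in eWAT (SE 0.52, adjusted p = 1.62e-12). The other fast genes, Tnni2, Tnnc2, Atp2a1 and Pvalb, were higher by 10.12 to 10.91 than in liver and by 8.19 to 8.62 than in eWAT. The gap to eWAT depended on eWAT library 25, without which it was 9.33 to 9.98 for Tnnt3, Tnni2, Tnnc2, Atp2a1 and Pvalb and 9.41 for Casq1, and all 6 stayed past the threshold.

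The slow troponins were near or at 0 outside muscle. Tnni1 had no count in any liver library, and 3 counts over the summed liver libraries were taken as the limit that a count of 0 allows. Pooled gastrocnemius stood 95.3-fold above that limit, and the exact 95% counting interval of the pooled ratio started at 76.8. Tnnc1 had no count in any eWAT library, which gives at least 234-fold by the same floor. Tnni1 had 1 count in all eWAT libraries together against 209 in gastrocnemius, a pooled ratio of 376 with an exact 95% counting interval of 66.7 to 14915. Tnnt1 was higher by 7.78 on the log2 scale than in liver (SE 1.06) and by 7.38 than in eWAT (SE 0.94). Without library 4 those values were 6.28 and 5.87, without eWAT library 17 the gap to eWAT was 9.14, and each stayed past the threshold.

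Atp2a2, which most cells use, was the exception in size. Its CPM in gastrocnemius spanned 27.1 to 993 with a median of 79.96, in liver 60.9 to 83.1 with a median of 79.0 and in eWAT 45.9 to 104 with a median of 65.3, so the 3 tissues overlapped. It was called higher in gastrocnemius than in liver by 1.56 on the log2 scale (SE 0.55, adjusted p = 0.016 by edgeR), but without library 4 the difference was 0.24 (SE 0.29, adjusted p = 0.48). Over eWAT the difference was 2.69 (SE 0.57, adjusted p = 0.00024), and without library 4 it was 1.36 (adjusted p = 0.00039). With library totals in place of the trimmed mean of M-values (TMM) scaling it was 1.72, with library 4 kept. That change of scaling moved the median of all genes in this comparison from -0.35 to -1.33. On library totals the gastrocnemius libraries other than 4 had 27.1 to 199.8 CPM (median 71.5), around the eWAT values of 45.9 to 104 (median 65.3). Both changes together were not fitted.

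**Figure D3:**
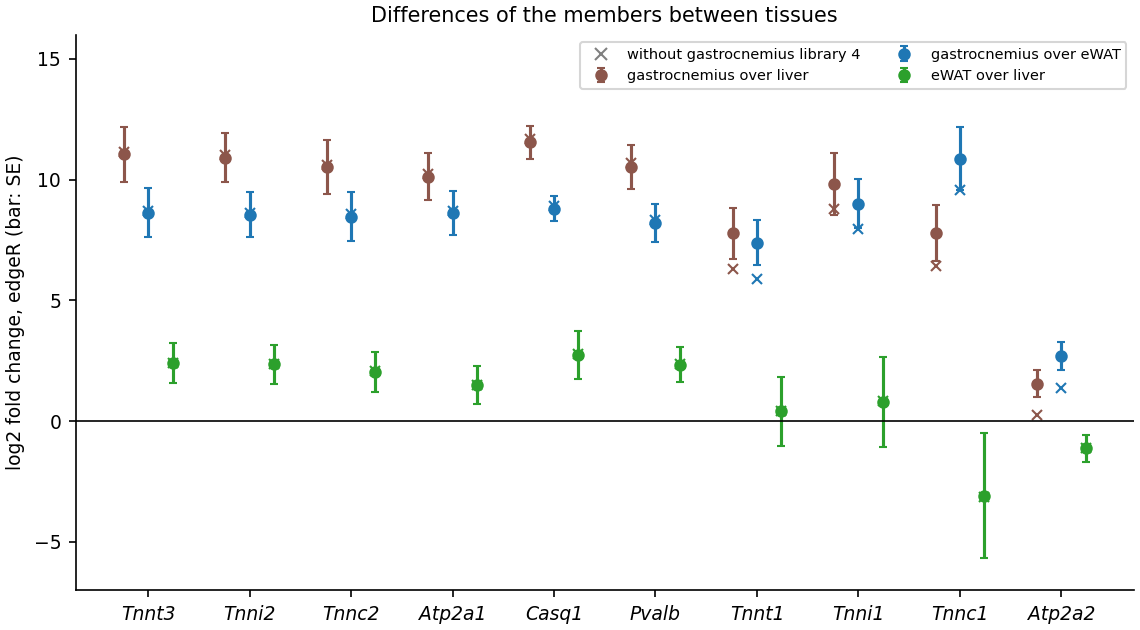
Log2 fold change of each gene between tissues by edgeR, with bars of 1 SE, for gastrocnemius over liver, gastrocnemius over eWAT and eWAT over liver; crosses give the fit without gastrocnemius library 4. Fast genes keep their values without that library, whereas Atp2a2 over liver moves from 1.56 to 0.24.

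Most tested genes of the wider pathway were higher in gastrocnemius too, and the exceptions lay among the pumps and other calcium binding genes. These counts stand beside 31.5% of all genes higher and 34.9% lower than in liver, and 26.3% higher and 41.1% lower than in eWAT. Of 8 fast fibre genes 8 were higher in gastrocnemius than in liver and 8 than in eWAT, and of 8 tested slow fibre genes 8 and 8. Of 15 tested calcium release genes 15 were higher in both comparisons: Trdn, which anchors calsequestrin to the release channel, by 11.64 and 8.68, and the channel Ryr1 itself by 11.61 and 8.17. Of 7 tested pumps and regulators 6 were higher than in liver, with Atp2a3 not called (1.05, adjusted p = 0.126). Against eWAT 4 of the 7 were higher and 2 lower: the plasma membrane pump Atp2b4 fell by 3.21 and the SERCA3 gene Atp2a3 fell by 3.29, while Atp2b1 was not called (0.21, adjusted p = 0.216). Of 5 other calcium binding genes 3 were higher and Calr, the calreticulin gene of the endoplasmic reticulum, was lower than in liver (-2.44). The cardiac troponins Tnnt2 and Tnni3 were too low to be tested and summed to at most 8.12 CPM in gastrocnemius.

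eWAT held fast muscle transcripts in amounts that differed widely between libraries. Fast troponin T (Tnnt3) had 962 counts in library 25, 184 in library 27, 140 in library 22, 39 in library 26, 13 in library 18 and 4 in library 17. Fast troponin C (Tnnc2) had 863, 230, 177, 54, 3 and 2 counts, and fast troponin I (Tnni2) 505, 120, 64, 25, 3 and 6. Atp2a1 had 316, 58, 59, 11, 0 and 7 counts, Pvalb 378, 86, 64, 28, 8 and 7, and Casq1 27, 6, 13, 8, 0 and 2. The 6 genes shared the order of the libraries at the top: library 25 was highest for each, and libraries 17 and 18 were the lowest for each by count.

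Summed, the 6 fast genes came to 923 CPM in library 25, 296 in library 22, 169 in library 27, 43.9 in library 26, 20.2 in library 18 and 7.97 in library 17. The muscle fibre markers moved with them: Acta1, Ckm, Des, Mb and Ttn together ran from 70.3 CPM in library 17 to 1129 CPM in library 25, and none of the 5 was at 0 in all eWAT libraries. Myh4 had 409 CPM in library 25, 90.6 in library 22, 72.5 in library 27 and at most 6.92 in the other 3. The adipocyte markers stayed between 14878 and 28927 CPM. The part of muscle fibre RNA in the fast gene values was not tested.

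Slow troponins were few beside the fast ones in the eWAT libraries richest in the fast genes. Library 25 had 2330 fast troponin counts and 3 slow ones, a slow share of 0.129% (exact 95% interval 0.0265% to 0.375%), which lies within the 0.0761% to 5.79% of the gastrocnemius libraries. Library 22 had 381 fast and 0 slow counts, which allows a share of up to 0.964% by the exact interval. The make-up of the 6 fast genes in eWAT overlapped that of gastrocnemius: Tnnc2 took a median of 30.5% of the 6 gene counts in eWAT and 27.5% in gastrocnemius, and Pvalb 14.8% and 9.64%.

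Tnnt1 broke from this pattern in library 17. It had 37 counts there and 0 to 3 in the other 5 eWAT libraries, although library 17 was lowest for the fast sum. The cardiac troponins were highest in that library, with Tnnt2 at 28.5 CPM against at most 1.82 CPM and Tnni3 at 9.11 CPM against at most 1.49 CPM, as was Casq2 at 13.1 CPM against at most 2.47 CPM. The other slow troponins were few there: Tnnc1 had 0 counts and Tnni1 had 1. The summed slow fibre list was highest in library 25 (61.4 CPM), not in library 17. Tnni3 was also counted in round spermatids, as given below. The spermatid markers summed to 60.6 CPM in library 17, above a median of 1.504 CPM over the 6 libraries, and the cartilage and tendon marker Chad had 38.7 CPM. Atp2a2 was also highest there, at 104 CPM. None of the sources used here says what library 17 contained besides eWAT, and the part of other tissue in these values was not tested.

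Liver held the fast genes at a low level and 1 library was high. The 6 fast genes summed to 14.8 to 33.8 CPM in 5 libraries and to 75.6 CPM in library 24, where Tnnt3 had 50 counts against 6 to 12 and Tnnc2 49 against 8 to 21. The muscle fibre markers were highest in that library too, at 76.6 CPM in sum with a median of 18.4 CPM over the 6 libraries. Atp2a2 was steady in liver, at 76.5 to 83.1 CPM in 5 libraries and 60.9 CPM in library 24.

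**Figure D4:**
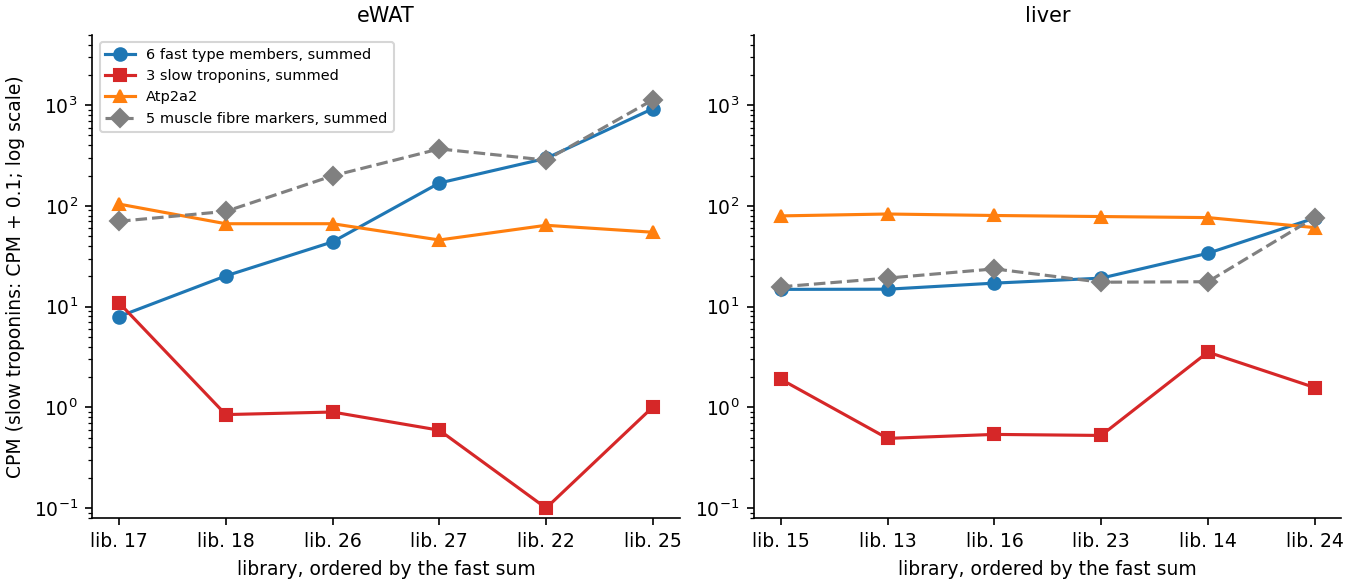
Summed CPM (log axis) of the 6 fast type genes, the 3 slow troponins (with 0.1 added), Atp2a2 and 5 muscle fibre markers in the 6 eWAT (left) and 6 liver (right) libraries, each ordered by the fast sum; lines only join points. The fast sum rises with the muscle markers to 923 CPM in eWAT library 25, while Atp2a2 stays between 45.9 and 104 CPM.

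Between eWAT and liver 5 of the 10 genes passed the test, all higher in eWAT, where 32.7% of the genes tested were called higher and 61.6% were called in either direction. With library totals in place of TMM, 6 of the 10 were higher, but so were 65.1% of all genes, whose median moved from 0.07 to 1.01. The 5 genes of the TMM fit were Tnnt3, Tnni2, Tnnc2, Casq1 and Pvalb. In that order they were higher by 2.41, 2.36, 2.05, 2.75 and 2.33 on the log2 scale. Their adjusted p by edgeR was 0.016, 0.014, 0.036, 0.0196 and 0.0080. Without eWAT library 25 none of the 5 passed, with adjusted p from 0.064 to 0.268 and log2 values from 0.97 to 2.12. Atp2a2 was lower in eWAT by 1.13 on the log2 scale (95% interval -2.25 to -0.01) but missed the threshold (adjusted p = 0.074). Without gastrocnemius library 4, which shares the fit, Atp2a2 passed at a like size (-1.11, adjusted p = 0.0016), and so did Tnnc1 (-3.14, adjusted p = 0.047) on 0 counts in eWAT and 4 in liver.

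In germ cells and embryos the muscle genes were close to absent and Atp2a2 was the gene that was measured well. These libraries were made from whole transcripts by another kit, so their levels are not set against the somatic tissues by a test. Round spermatids had 3603 to 5419 counts of Atp2a2 per library (160 to 182 CPM, 28.4 CPM per kilobase of exon at the median), and morulae 2600 to 3070 counts (214 to 261 CPM). Casq1 was the second gene measured in round spermatids, with 310 to 496 counts in all 6 libraries (13.8 to 15.97 CPM, 7.77 CPM per kilobase of exon at the median), against at most 1.31 CPM in sperm and 1.03 CPM in morulae. Tnnt3, Tnni2 and Tnnc2 had 1, 1 and 2 counts over all 6 round spermatid libraries.

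The neighbour of Casq1 was also counted in round spermatids, and far more often. Atp1a4, a sodium pump gene of male germ cells, is the next gene upstream of Casq1 on the same strand and had 563.9 to 662 CPM in round spermatids. The part of Atp1a4 reads in the Casq1 value was not tested. The cardiac troponin I gene Tnni3 had 30.1 to 37.9 CPM in these libraries. Other genes of the calcium release list measured there included Cacnb1, a calcium channel subunit, at 57.1 to 73.1 CPM and the release channel Ryr3 at 31.9 to 37.1 CPM.

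**Figure D5:**
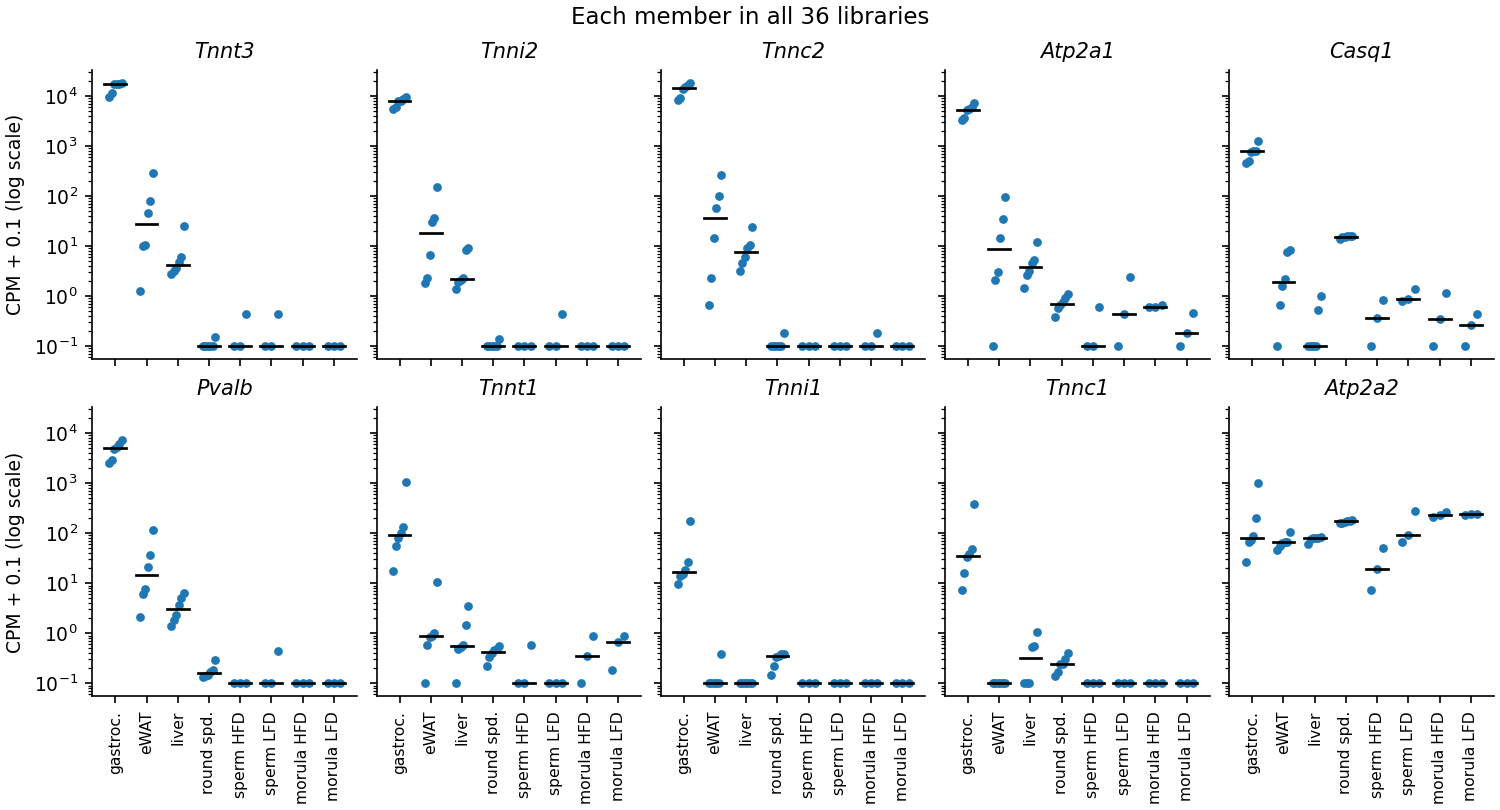
CPM + 0.1 (log axis) of each gene in all 36 libraries, with a point per library and a bar at the median, by tissue, cell type and diet group. Outside gastrocnemius the fast genes reach 291 CPM in eWAT and 24.6 CPM in liver, while Atp2a2 is at 7.07 CPM or more in each library.

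Between the diets no member passed the test, and Atp2a2 was the only 1 of the 10 with enough counts to be tested in either cell type. In sperm it had 57, 201 and 26 counts in the HFD libraries 1000, 3000 and 4000, and 198, 282 and 700 in the LFD libraries 1000, 2000 and 4000. As CPM of library totals these were 25.2 ± 21.9 (SD, n = 3) with HFD and 145 ± 112 (SD, n = 3) with LFD, and the groups did not overlap on that scale. The exact permutation test on log2(CPM + 1) of library totals gave p = 0.1, 2-sided, the smallest that 3 against 3 can give. With TMM scaling the groups overlapped. HFD library 3000 had 201 counts on a scaled total of 2857020, and LFD library 1000 had 198 on 4364750. edgeR gave -0.77 on the log2 scale (95% interval -1.98 to 0.44, adjusted p = 0.61). Without HFD library 3000 the difference was -1.42, without HFD library 4000 it was -0.39 and without LFD library 4000 it was -0.33, none of them past the threshold. 0% of the 8643 genes tested in sperm were called, with 724 higher and 400 lower at an unadjusted p under 0.05, and DESeq2 called 236 higher and 17 lower but not Atp2a2.

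The sperm value depended on the scaling. TMM factors were 0.44 to 0.71 in HFD and 1.52 to 2.62 in LFD libraries, and with library totals alone Atp2a2 differed by -2.54 (adjusted p = 0.017), while 38.8% of all genes were called lower with HFD and the median of all genes moved to -1.84. Crisp1, a marker of the epididymis, had 1918, 2604 and 1585 CPM in HFD and 2474, 7804 and 23483 CPM in LFD libraries, and the library highest for Crisp1 was also highest for Atp2a2 (273 CPM). Of the other epididymis markers, Cst8 was at 10.1 CPM or less and higher in 2 of the 3 HFD libraries than in each LFD library, and Lcn5 was at 1.95 CPM or less. On library totals the 4 leukocyte markers summed to 276 to 817 CPM in HFD and 1569 to 3952 CPM in LFD libraries. These sums did not overlap and were highest in the same LFD library 4000. In the TMM fit only Cd52 was lower with HFD (-0.60 on the log2 scale). Ptprc (1.09), Lyz2 (1.22) and Cd74 (1.39) were higher, and none of the 4 passed the threshold. The summed smooth muscle markers reached 457 CPM in HFD library 3000, the HFD library highest for Atp2a2, and at most 4.35 CPM in the other HFD libraries. In LFD libraries they reached 70.7 CPM, in library 4000. The part of epididymal, leukocyte or smooth muscle RNA in the Atp2a2 value was not tested.

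In morulae the Atp2a2 values of the diets lay close together. It had 261, 226 and 214 CPM in HFD and 235, 242 and 240.0 CPM in LFD libraries, or 234 ± 24.2 and 239 ± 3.80 (SD, n = 3 each), and the ranges overlapped. edgeR gave -0.05 on the log2 scale with a 95% interval of -0.27 to 0.17 (adjusted p = 0.96). 0% of the 13447 genes tested were called, with 477 higher and 381 lower at an unadjusted p under 0.05, and DESeq2 called 5 higher and 11 lower, Atp2a2 not among them. Tnnt3, Tnni1, Tnni2, Tnnc1 and Pvalb had no count in any morula library, which allows at most 0.262 CPM in a library by the limit of 3 counts.

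Gene models of 4 of the 10 genes share exonic bases with a gene on the opposite strand. Tnnc2 shares 592 of its 800 exonic bases with Ube2c on the opposite strand, and Atp2a1 shares 763 of 3477 with Rabep2. Casq1 shares 156 with Gm17224 and Atp2a2 83 with Gm43361. Without strand reads from such overlaps cannot be told apart, and the strand setting of the counting is not given in the sources used here. In gastrocnemius Ube2c was counted at 1.45 CPM or less and Rabep2 at 5.86 CPM or less. In morulae with LFD Ube2c had 316 to 374 CPM and Tnnc2 none.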

How the data were processed

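Gene counts were analysed from 36 libraries in 6 tables. The authors made the deposited counts, whole numbers of reads per gene without normalization, with BBDuk, STAR (GRCm38, Ensembl genes) and featureCounts, whose versions and strand setting are not given in the sources used here. Somatic tissues were sequenced from transcript 3′ ends (QuantSeq), and germ cells and morulae from Nextera libraries. Tissue follows from the table, whose columns carry sequencing numbers, and so tissue and table cannot be told apart. Diet in sperm and morulae follows the column letters. In 3 morula samples the description field names the other diet, and the title was followed. Whether libraries of different tissues share animals is not known, and where replicates are technical the p-values measure only that spread.

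CPM was computed from library totals (369772 to 31056066 counts, a limit of 3 counts per library). Differences were tested with edgeR 4.0.16 (quasi-likelihood, filterByExpr with a minimum count of 10, TMM, Benjamini-Hochberg) and with DESeq2 1.42.0 as an alternative. An adjusted p under 0.05 was called. The SE is the log2 fold divided by the root of its F statistic. Tests were first tried on simulated counts. No pair of libraries agreed within sampling noise (chi-square per degree of freedom of at least 3.50). Genes named beyond the 10 come from lists of fibre type, calcium release, pump, calcium binding and cell type marker genes, and from the 5 genes at each end of the likeness ranking. The rule was to name list members with the highest median CPM and those missing the threshold. List members named for a library that stood apart or for their direction, Trdn, Ryr1, Cacnb1 and Ryr3, and the neighbours Atp1a4, Ube2c and Rabep2, were chosen after their values were seen. The genes and lists were chosen with earlier results of these data known. Promoter windows are from RefSeq (GRCm38.p6).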

Additional observations from a re-analysis of the deposited data

Results flagged for a closer look

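Within each group of 6 libraries, the highest or lowest value on the log2(CPM + 1) scale was set against the rest by its gap to the nearest library, divided by the range. Of 42 such sets of values 9 exceeded the 95% limit for 6 samples. No chance rate is set beside that count, because the gap is 1 by construction where only 1 library has any count. This held for Tnni1 in eWAT and for Tnnt3, Tnni2 and Tnnc2 in round spermatids, so their flags carry no weight. In gastrocnemius Tnni1 was flagged for library 4 (gap of 0.658 of the range). In eWAT Tnnt1 (0.736) and Tnni1 (1, on a single count) were flagged for library 17. In liver Tnnt3 (0.678, highest) and Atp2a2 (0.736, lowest) were flagged for library 24. In round spermatids Tnnt3, Tnni2 and Tnnc2 (1 each) and Pvalb (0.69) were flagged on 4 counts or fewer. The fast to slow ratio in gastrocnemius was not flagged. The diet difference of Atp2a2 in sperm against that in morulae did not pass a test that permutes the diets within each (difference of -2.55 on the log2(CPM + 1) scale with library totals, exact p = 0.07 over 400 arrangements). With TMM scaling the fitted differences were -0.77 in sperm and -0.05 in morulae, so the contrast was much smaller, and it was not tested on that scale.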

How the results depend on the processing

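Of 319 values for single genes under other settings, 298 kept their direction and their side of the threshold. The direction turned for Tnnt1 between eWAT and liver without eWAT library 17 (-1.38, where leaving out other libraries gave up to 0.58), for Tnni1 there with DESeq2 (-0.73) and for Atp2a2 in morulae without HFD library 7 (0.028, the highest, with -0.18 the lowest, without HFD library 5), none of which passed. The count of genes changed between eWAT and liver, 5 by the fit reported, ran from 0 to 7 with a library left out, at 0 without eWAT library 25 and 7 without gastrocnemius library 4. The gastrocnemius over liver count ran from 9 to 10, and over eWAT it stayed at 10. In sperm, library totals gave 1 gene in place of 0, and leaving out any library gave 0 to 0. Of the 10 genes most and least like the ratio, 4 stayed with a minimum of 50 CPM and 2 without library 4, and the cause was not tested. Libraries left out of the tissue tests were chosen after seeing the data.

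In sperm, HFD and LFD libraries share the numbers 1000 and 4000. With these numbers as a replicate block, 0 of the 10 genes changed, and 2 genes of all were called in place of 0. Same-numbered libraries had correlated deviations of 0.10 and -0.14, so the numbers were not taken as pairs. No paired analysis was possible in morulae because the diets share no number. Precision is limited by depth: 369772 counts in gastrocnemius library 4 allow 8.11 CPM for a count of 0.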
